A study of Mus musculus with 18 samples.

Results

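The interferon-stimulated genes examined here are 39 genes picked by name from a list of known targets of interferon signalling, and all 39 were found among the 24015 entries of each of the 3 deposited comparison tables. No expression value entered the choice by rule, although earlier results of these data were known when the list was drawn up. RNA was sequenced from microdissected dentate gyrus, the hippocampal field made up mainly of granule neurons, of C57BL/6 mice aged 8 weeks, with 18 libraries in 6 groups of 3 and each library from its own mouse. The groups were shRNA-cFos E1 and shRNA-cFos E0, with a short hairpin RNA named for c-Fos; shRNA-Ctrl E1 and shRNA-Ctrl E0, with a control hairpin; and cFos_OE and EYFP_OE, which overexpressed c-Fos or a yellow fluorescent protein. The series examined neuronal activation; the deposited comparisons set E1 against a state they call sham, taken here as E0, and the labels define neither further. How the constructs were delivered, and which promoter and cells express them, is stated in none of the sources used here, and all 6 groups carry a construct.

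Interferons are secreted proteins that signal through surface receptors and JAK kinases. Type I interferon activates a transcription factor complex that holds Stat2 and Irf9 and binds the interferon-stimulated response element (ISRE), while interferon gamma acts mainly at the gamma-activated site (GAS). The target genes encode nucleic acid sensors, antiviral effectors, GTPases that attack intracellular pathogens, and further factors such as Irf7 that amplify the response. In brain, microglia, astrocytes, endothelial cells and neurons can all express these genes.

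Promoters of 29 of the 39 genes were found in the RefSeq table for build GRCm38.p6, which gives windows of 300 bases from 250 before to 50 after each start. The ISRE letters searched were TTTC, any 2 bases and TTTC again, on both strands, and 15 of the 29 genes (51.7%) held at least 1 match, against 3.99% of all 27025 genes in the table. The GAS letters TTCNNNGAA were found for 8 of the 29 (27.6%), against 9.55% of all genes, and those of AP-1, the factor that c-Fos is part of, TGANTCA, for 7 of 29 (24.1%), against 8.97%. The searches may overlap each other, and a match is a run of letters, not a shown binding site. Shown first are 4 promoters of members that passed with both hairpins, picked among those with ISRE letters, which are in capitals. Other members that passed with both hairpins, such as Irf9, Oasl2 and Xaf1, have no ISRE letters in their windows. The neighbouring pair Rsad2 and Cmpk2, whose values differ with the control hairpin, comes last.
Ifit1, chr19:34640639-34640938, plus strand: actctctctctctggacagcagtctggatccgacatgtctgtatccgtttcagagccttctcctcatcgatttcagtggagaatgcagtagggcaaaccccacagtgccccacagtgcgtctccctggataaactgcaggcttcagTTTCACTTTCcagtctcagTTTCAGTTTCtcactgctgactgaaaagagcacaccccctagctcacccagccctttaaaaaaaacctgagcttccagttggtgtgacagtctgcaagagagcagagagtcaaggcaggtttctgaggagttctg
Ifit3, chr19:34583279-34583578, plus strand: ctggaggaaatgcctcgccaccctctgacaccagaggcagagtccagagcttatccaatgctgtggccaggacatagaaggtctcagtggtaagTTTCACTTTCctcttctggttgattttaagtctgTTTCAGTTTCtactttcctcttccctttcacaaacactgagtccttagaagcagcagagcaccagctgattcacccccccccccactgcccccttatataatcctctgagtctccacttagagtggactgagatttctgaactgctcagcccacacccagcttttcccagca
Isg15, chr4:156200769-156201068, minus strand: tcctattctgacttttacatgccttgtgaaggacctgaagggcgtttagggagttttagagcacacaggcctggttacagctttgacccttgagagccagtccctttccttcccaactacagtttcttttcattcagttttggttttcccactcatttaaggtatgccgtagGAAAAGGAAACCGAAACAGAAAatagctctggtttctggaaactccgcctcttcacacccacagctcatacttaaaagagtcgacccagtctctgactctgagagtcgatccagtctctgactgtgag
Bst2, chr8:71537423-71537722, minus strand: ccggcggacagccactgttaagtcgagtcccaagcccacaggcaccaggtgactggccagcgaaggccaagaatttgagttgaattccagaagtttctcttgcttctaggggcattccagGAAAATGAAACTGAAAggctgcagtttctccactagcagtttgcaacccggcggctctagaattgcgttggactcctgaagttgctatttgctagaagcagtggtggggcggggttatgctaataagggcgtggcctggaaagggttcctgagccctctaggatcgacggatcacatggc
Rsad2, chr12:26456403-26456702, minus strand: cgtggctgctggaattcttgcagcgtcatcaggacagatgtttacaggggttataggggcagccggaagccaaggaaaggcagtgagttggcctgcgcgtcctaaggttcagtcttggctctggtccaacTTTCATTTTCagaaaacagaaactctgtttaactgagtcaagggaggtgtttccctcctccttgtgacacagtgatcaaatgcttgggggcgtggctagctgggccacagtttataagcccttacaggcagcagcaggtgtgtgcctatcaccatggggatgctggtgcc
Cmpk2, chr12:26468965-26469264, plus strand: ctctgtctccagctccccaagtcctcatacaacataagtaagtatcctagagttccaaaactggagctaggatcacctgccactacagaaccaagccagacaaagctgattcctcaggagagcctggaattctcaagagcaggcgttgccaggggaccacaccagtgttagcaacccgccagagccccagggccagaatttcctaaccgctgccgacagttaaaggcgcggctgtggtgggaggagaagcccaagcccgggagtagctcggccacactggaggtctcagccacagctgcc
In Ifit1 the ISRE letters begin 104 and 85 bases before the start, in Ifit3 156 and 122, in Rsad2 120, and in Isg15 3 overlapping matches begin 78, 72 and 66 bases before it. The Cmpk2 window holds no match to any of the 3 motifs, which says only that these letters are absent from it.

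The values are those of the authors' 3 tables, each row with a mean normalized count over the 6 libraries compared, a log2 fold change, its standard error and a p-value adjusted by Benjamini-Hochberg, all from DESeq2. Values per library were not analysed here, so overlap between mice could not be examined and depth is unknown. The deposited fold changes are pulled toward 0 by the fit, most of all where mice of a group differ widely. Fos, the targeted gene, had log2 fold changes of 2.33 ± 0.15 with shRNA-cFos and 3.36 ± 0.14 with shRNA-Ctrl at E1 over E0, and 3.34 ± 0.20 for cFos_OE over EYFP_OE, in the authors' deposited tables. In tissue RNA, a change in the number of cells of a type and a change in RNA per cell cannot be told apart.

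With the c-Fos hairpin, interferon-stimulated genes fell at E1. By the authors' deposited values, 31 of 39 members were lower at an adjusted p under 0.05, against a background of 11.7% of all 14388 tested genes (28.1% in either direction), and 0 were higher, against 16.3% (also 0 at an unadjusted p under 0.05). All 39 members had a negative log2 fold change in the authors' deposited table, between -1.10 and -0.35, with a median of -0.70, while the median of all tested genes was -0.00. A Holm adjustment in place of Benjamini-Hochberg left 10 of these calls, computed from the authors' deposited table.

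With the control hairpin most members rose. By the authors' deposited values, 34 of 39 members were higher at E1, against a background of 16.8% of 15675 tested genes, and 1 was lower, against 16.2% (33% in either direction). Their median log2 fold change in the authors' deposited table was 0.90, with a range of -0.25 to 1.36, beside 0.01 for all tested genes. The Holm adjustment left 5 higher and 0 lower, computed from the authors' deposited table. Of the members, 27 fell with shRNA-cFos and rose with shRNA-Ctrl, a pattern found in 1.86% of the 14386 genes tested in both of the authors' deposited tables. Another 7 members, namely Rsad2, Ifi35, Gbp2, Gbp3, Irgm1, Ifitm3 and Mx1, did not pass with shRNA-cFos and rose with shRNA-Ctrl, against 9.84% of the same 14386 genes. A further 3, namely Irf1, Zbp1 and Samd9l, fell with shRNA-cFos and did not pass with shRNA-Ctrl in the authors' deposited tables. That pattern was found in 5.69% of the 14386 genes, so 3 of 39 is near the share of all genes.

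**Figure D1:**
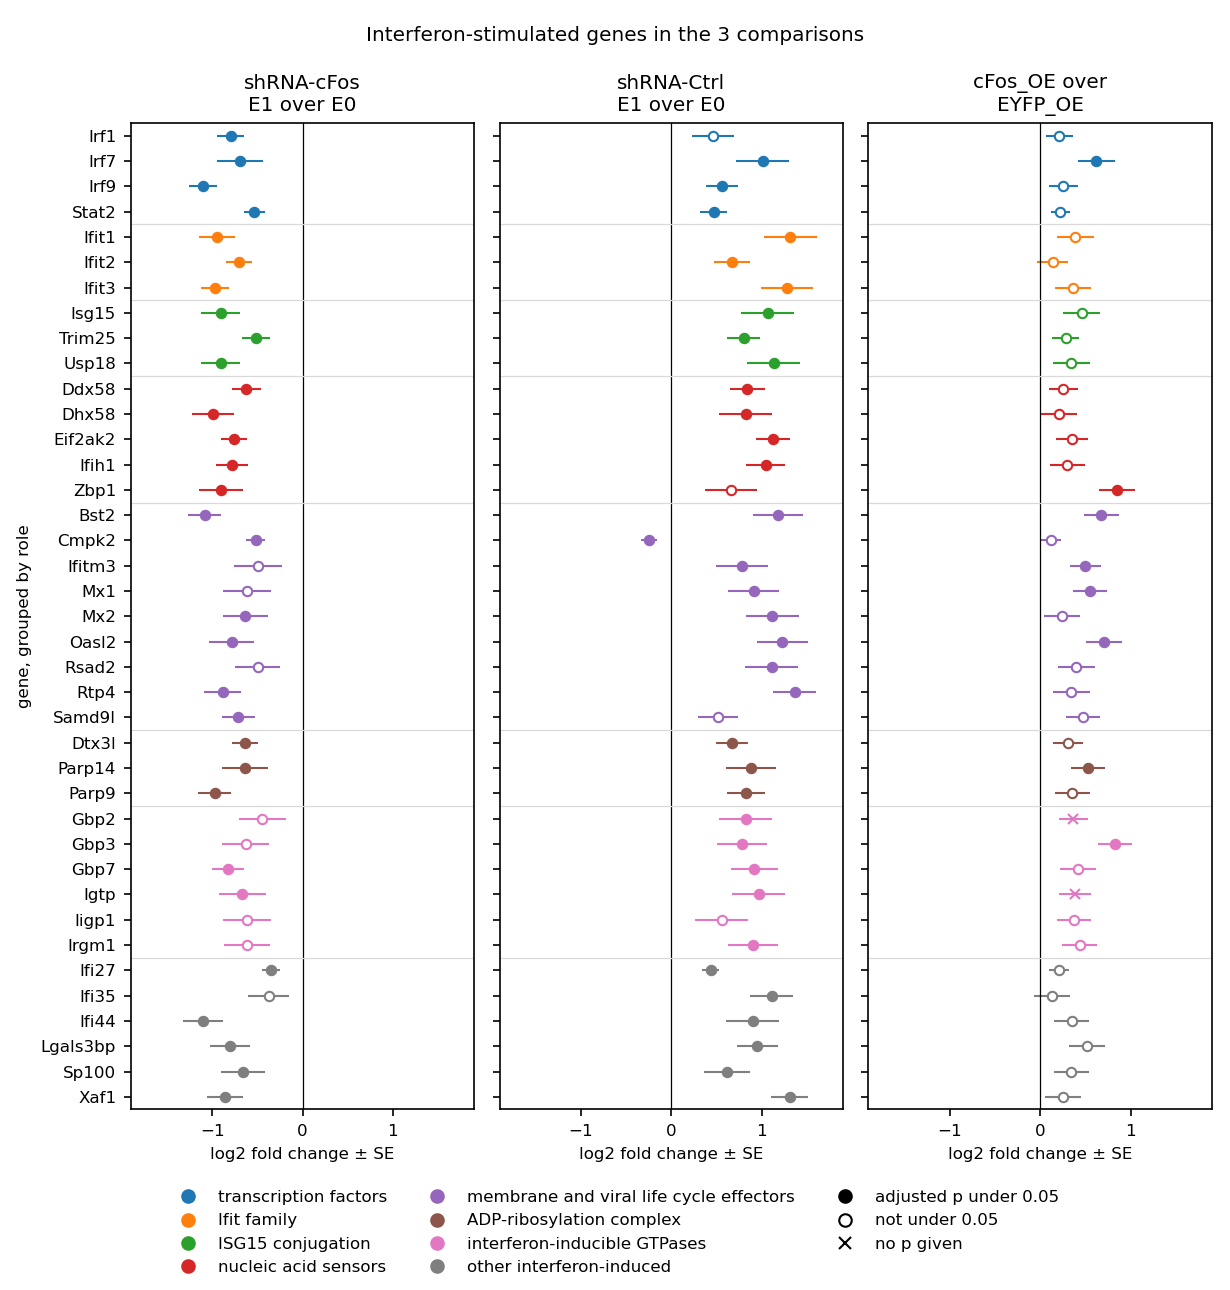
Log2 fold change and its standard error of each of the 39 genes (rows, coloured by role) in the 3 deposited comparisons (panels), with filled points for an adjusted p under 0.05, open points for genes that did not pass and crosses for the 2 genes with no p. All points of the shRNA-cFos panel lie below 0, all but Cmpk2 of the shRNA-Ctrl panel lie above 0, and all points of the overexpression panel lie above 0.

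Of the 4 transcription factors, Irf7, Irf9 and Stat2 passed with both hairpins. Irf9, the DNA-binding subunit of the type I interferon complex, had a log2 fold change of -1.10 ± 0.16 with shRNA-cFos (DESeq2 adjusted p = 2e-10) and 0.56 ± 0.18 with shRNA-Ctrl (0.0071) in the authors' deposited tables. Stat2, its partner, had -0.53 ± 0.12 with shRNA-cFos and 0.47 ± 0.15 with shRNA-Ctrl in the authors' deposited tables. Both factors thus fell in one arm and rose in the other. Irf7, which amplifies type I interferon production, had -0.69 ± 0.25 (DESeq2 adjusted p = 0.029) with shRNA-cFos and 1.01 ± 0.29 (0.0028) with shRNA-Ctrl in the authors' deposited tables. Irf1, a direct target of interferon gamma, had -0.80 ± 0.15 with shRNA-cFos and 0.46 ± 0.23 with shRNA-Ctrl, where it did not pass (DESeq2 adjusted p = 0.12), by the values the authors deposited.

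The Ifit genes, whose products bind foreign RNA and block its translation, passed in both arms. Ifit1 had a log2 fold change of -0.95 ± 0.20 with shRNA-cFos and 1.32 ± 0.29 with shRNA-Ctrl in the authors' deposited tables, and Ifit3 had -0.97 ± 0.15 with shRNA-cFos and 1.28 ± 0.29 with shRNA-Ctrl. Ifit2, close to the members' median with shRNA-cFos, had -0.70 ± 0.14 with shRNA-cFos and 0.67 ± 0.20 with shRNA-Ctrl in the authors' deposited tables. The DESeq2 adjusted p-values of all 3 were at most 0.0032 in the authors' deposited tables. Ifit2 and Ifit3 are neighbours in RefSeq, and members of this family resemble each other, so reads may be shared between them.

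Isg15 encodes a ubiquitin-like protein that is attached to other proteins, Usp18 removes it and damps the interferon receptor, and Trim25 is a ligase that activates the RNA sensor encoded by Ddx58. Isg15 had a log2 fold change of -0.91 ± 0.22 with shRNA-cFos and 1.07 ± 0.29 with shRNA-Ctrl in the authors' deposited tables. Usp18 had -0.90 ± 0.22 with shRNA-cFos and 1.13 ± 0.29 with shRNA-Ctrl, and Trim25 had -0.51 ± 0.16 with shRNA-cFos and 0.80 ± 0.18 with shRNA-Ctrl, in the authors' deposited tables. All 3 passed in both directions.

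The nucleic acid sensors other than Zbp1 fell with shRNA-cFos and rose with shRNA-Ctrl. Eif2ak2, the kinase that halts translation on double-stranded RNA, had a log2 fold change of -0.75 ± 0.14 with shRNA-cFos (DESeq2 adjusted p = 3.6e-06) and 1.12 ± 0.18 with shRNA-Ctrl (1.6e-08) in the authors' deposited tables. Ifih1, which senses long double-stranded RNA, had -0.78 ± 0.18 with shRNA-cFos and 1.04 ± 0.21 with shRNA-Ctrl in the authors' deposited tables. The sensor gene Ddx58 had -0.62 ± 0.16 with shRNA-cFos and 0.84 ± 0.19 with shRNA-Ctrl, and its regulator Dhx58 had -0.99 ± 0.23 with shRNA-cFos and 0.82 ± 0.29 with shRNA-Ctrl, in the authors' deposited tables. Zbp1, a sensor of left-handed nucleic acids that can trigger necroptosis, fell with shRNA-cFos (-0.90 ± 0.24) and did not pass with shRNA-Ctrl (0.66 ± 0.28, DESeq2 adjusted p = 0.058) in the authors' deposited tables.

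Among effectors that act at membranes or on the viral life cycle, Bst2, which tethers budding virions, had -1.08 ± 0.18 with shRNA-cFos and 1.18 ± 0.28 with shRNA-Ctrl in the authors' deposited tables. Rtp4, a receptor-transporting protein, had -0.88 ± 0.21 with shRNA-cFos beside 1.36 ± 0.24 with shRNA-Ctrl, as the authors' deposited tables give them. Oasl2, an oligoadenylate synthetase-like gene, had -0.78 ± 0.25 with shRNA-cFos and 1.23 ± 0.28 with shRNA-Ctrl in the authors' deposited tables. These 3 passed in both arms. Mx1 and Mx2 belong to a family of antiviral GTPases. C57BL/6 mice carry a defective Mx1, and whether their Mx2 is intact was not examined. Mean normalized counts of both genes were low, at 36.9 and 30.4 with shRNA-cFos and 54.5 and 53.5 with shRNA-Ctrl in the authors' deposited tables. Mx1 had -0.61 ± 0.26 with shRNA-cFos, where it did not pass (DESeq2 adjusted p = 0.062), and 0.91 ± 0.28 with shRNA-Ctrl in the authors' deposited tables. Mx2 passed in both arms, with -0.63 ± 0.25 with shRNA-cFos and 1.11 ± 0.29 with shRNA-Ctrl in the authors' deposited tables. Samd9l, a restraint on cell growth, had -0.71 ± 0.18 with shRNA-cFos and 0.52 ± 0.22 with shRNA-Ctrl in the authors' deposited tables (DESeq2 adjusted p = 0.00082 and 0.052). Ifitm3, which blocks viral fusion, had -0.49 ± 0.26 with shRNA-cFos, where it did not pass, and 0.78 ± 0.29 with shRNA-Ctrl in the authors' deposited tables.

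Rsad2 and Cmpk2 are neighbours in RefSeq, and both are known interferon targets, yet their values parted. Rsad2, which makes a chain-terminating nucleotide, had a log2 fold change of -0.50 ± 0.25 with shRNA-cFos (DESeq2 adjusted p = 0.13) and 1.11 ± 0.29 with shRNA-Ctrl (0.00093) in the authors' deposited tables. Cmpk2, a mitochondrial nucleotide kinase, had -0.52 ± 0.11 with shRNA-cFos (DESeq2 adjusted p = 1.5e-05) and -0.25 ± 0.09 with shRNA-Ctrl (0.019) in the authors' deposited tables. Cmpk2 was thus the member that fell in both arms, although its fall with shRNA-Ctrl was under 1.5-fold and did not pass at an adjusted p of 0.01.

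The ADP-ribosylation genes Parp9, Dtx3l and Parp14 lie next to each other in RefSeq, and Parp9 and Dtx3l work as a complex. Parp9 had a log2 fold change of -0.97 ± 0.18 with shRNA-cFos and 0.83 ± 0.21 with shRNA-Ctrl, and Dtx3l had -0.63 ± 0.14 with shRNA-cFos and 0.67 ± 0.18 with shRNA-Ctrl, in the authors' deposited tables. Parp14 had -0.63 ± 0.26 with shRNA-cFos (DESeq2 adjusted p = 0.047) and 0.88 ± 0.28 with shRNA-Ctrl (0.0076) in the authors' deposited tables. Dtx3l and Parp9 overlap in RefSeq, so without a stated strand setting their counts may share reads.

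The interferon-inducible GTPases, best known as targets of interferon gamma that act on the vacuoles of intracellular pathogens, fell for 2 of 6 members with shRNA-cFos (11.7% of all tested genes did) and rose for 5 of 6 with shRNA-Ctrl (16.8% did) by the values in the authors' deposited tables. Gbp7 had a log2 fold change of -0.83 ± 0.18 with shRNA-cFos and 0.92 ± 0.26 with shRNA-Ctrl, and Igtp had -0.66 ± 0.26 with shRNA-cFos and 0.97 ± 0.29 with shRNA-Ctrl, in the authors' deposited tables. Irgm1 (-0.62 ± 0.26), Gbp3 (-0.63 ± 0.26) and Gbp2 (-0.44 ± 0.26) did not pass with shRNA-cFos, with DESeq2 adjusted p-values of 0.056, 0.056 and 0.20 in the authors' deposited table. The same 3 genes rose with shRNA-Ctrl, at 0.91 ± 0.28, 0.78 ± 0.28 and 0.82 ± 0.29 in the authors' deposited table. Iigp1 was the member that passed in neither arm, at -0.61 ± 0.26 with shRNA-cFos and 0.56 ± 0.29 with shRNA-Ctrl (DESeq2 adjusted p = 0.066 and 0.13) in the authors' deposited tables. Gbp7 and Gbp3 are neighbours and close relatives, so their counts may share reads.

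Of the remaining 6 members, Xaf1, which promotes apoptosis, had -0.86 ± 0.20 with shRNA-cFos beside the smallest adjusted p of all members with shRNA-Ctrl (1.31 ± 0.20, DESeq2 adjusted p = 3.1e-09), as the authors' deposited tables give them. Ifi44, an interferon-induced gene, had -1.10 ± 0.22 with shRNA-cFos and 0.90 ± 0.29 with shRNA-Ctrl in the authors' deposited tables. Lgals3bp, a secreted binder of galectin-3, had -0.80 ± 0.22 with shRNA-cFos and 0.95 ± 0.22 with shRNA-Ctrl, and Sp100, a nuclear body protein, had -0.66 ± 0.24 with shRNA-cFos and 0.61 ± 0.26 with shRNA-Ctrl, in the authors' deposited tables. Ifi35 did not pass with shRNA-cFos (-0.38 ± 0.22, DESeq2 adjusted p = 0.21) and rose with shRNA-Ctrl (1.11 ± 0.24) in the authors' deposited tables. Ifi27 passed in both arms with small changes, at -0.35 ± 0.10 with shRNA-cFos and 0.43 ± 0.09 with shRNA-Ctrl in the authors' deposited tables.

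The E1 response itself was then compared between the hairpins by subtracting each gene's log2 fold change with shRNA-Ctrl from that with shRNA-cFos and dividing by the joint standard error. The response was lower with shRNA-cFos for 38 of 39 members at a Benjamini-Hochberg adjusted p under 0.05, against a background of 11% of 14386 genes (23.8% in either direction), and higher for 0, against 12.9% (also 0 at an unadjusted p under 0.05), from a normal approximation to the DESeq2 errors in the authors' deposited tables. The median difference was -1.61 with a range of -2.26 to -0.27, computed from the authors' deposited tables. The smallest adjusted p-values were those of Eif2ak2 (-1.88 ± 0.23, adjusted p = 4.1e-13 by a normal approximation to the DESeq2 errors), Xaf1 (-2.17 ± 0.28), Rtp4 (-2.25 ± 0.32) and Irf9 (-1.66 ± 0.24), computed from the authors' deposited tables. Cmpk2 was the exception, with a difference of -0.27 ± 0.14 that did not pass (adjusted p = 0.15 on DESeq2 errors), computed from the authors' deposited tables. The Holm adjustment left 22 members lower, computed from the authors' deposited tables.

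**Figure D2:**
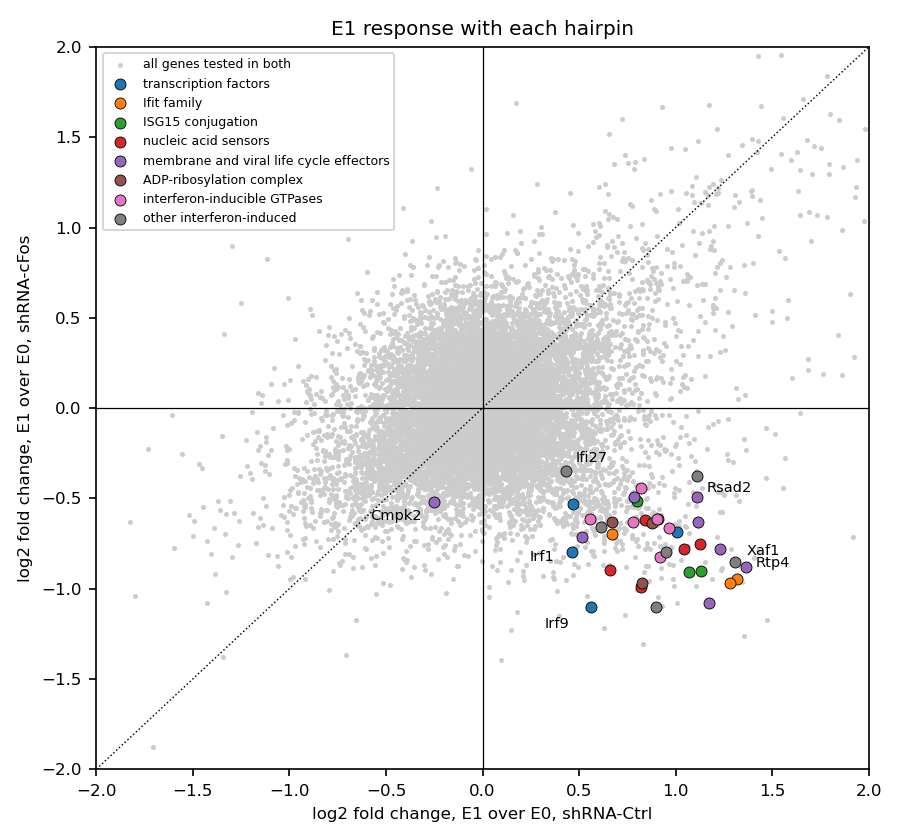
Log2 fold change at E1 over E0 with shRNA-cFos (vertical axis) against that with shRNA-Ctrl (horizontal axis) for the 39 genes, coloured by role, and for all 14386 genes tested in both tables in grey, of which 68 lie outside the axes; the dotted line marks equal responses. The members sit at the lower right, apart from Cmpk2 at -0.52 with shRNA-cFos and -0.25 with shRNA-Ctrl.

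Group levels were estimated from the mean normalized count and the fold change with its pull toward 0 removed, for the 20 members whose standard error was not within 5% of the largest in either shRNA table. They carry no error and no test, and the shRNA-cFos table was first scaled to the shRNA-Ctrl table, since the tables were normalized separately and E0 levels differed by a median log2 ratio of -0.43 over 12405 genes. Eif2ak2 stood at 266 normalized counts at E1 and 470 at E0 with shRNA-cFos, and at 436 at E1 and 182 at E0 with shRNA-Ctrl, computed from the authors' deposited tables. Xaf1 stood at 80.2 at E1 and 163 at E0 with shRNA-cFos, and at 179 at E1 and 62.2 at E0 with shRNA-Ctrl, in normalized counts computed from the authors' deposited tables. Irf9 stood at 311 at E1 and 727 at E0 with shRNA-cFos, and at 535 at E1 and 346 at E0 with shRNA-Ctrl, in the same unit and from the same tables by the authors, as deposited. In each of these genes the groups shRNA-cFos E0 and shRNA-Ctrl E1 had the higher levels. Over the 20 members the log2 level with shRNA-cFos minus that with shRNA-Ctrl had a median of 1.08 at E0, with 20 of 20 above 0, and of -0.69 at E1, with 19 of 20 below 0, computed from the authors' deposited tables. Without the scaling these medians were 0.65 at E0, with 19 of 20 above 0, and -1.13 at E1, with 20 of 20 below 0, computed from the authors' deposited tables. The scaling sets the median of the 12405 genes at E0 to 0, and without it that median was -0.43. The shares of all genes above 0 at E0 or below 0 at E1 were not computed, so these counts have no background. The estimated levels of these members thus stood apart between the hairpin arms at E0 as well as at E1 under both scalings, which was not tested.

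**Figure D3:**
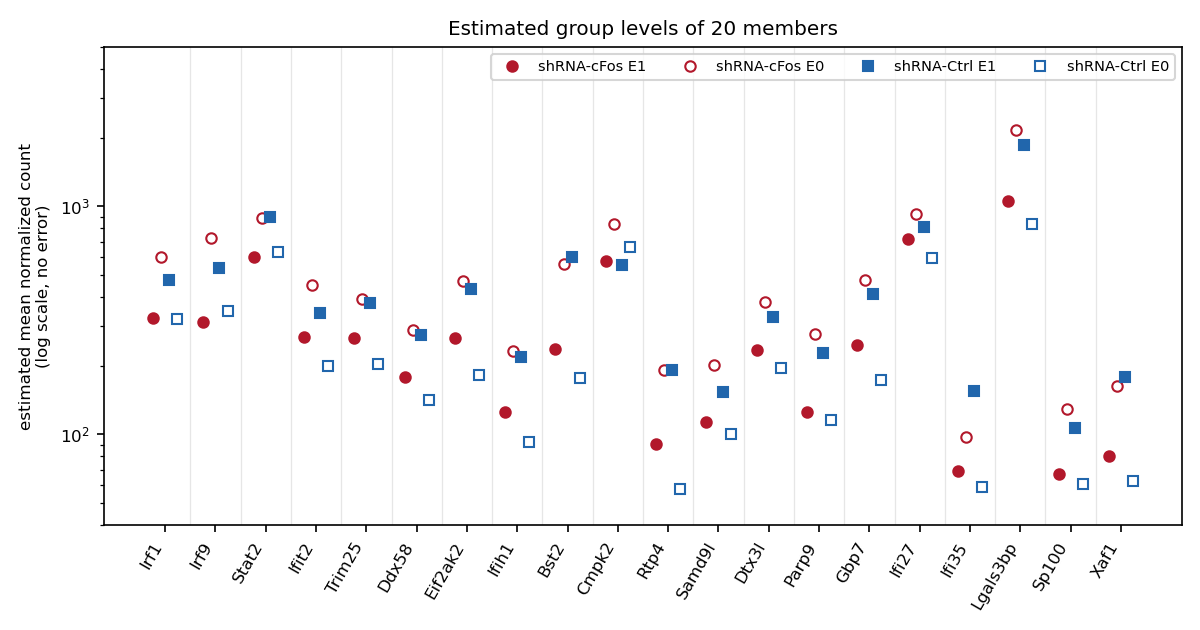
Estimated mean normalized count (vertical log axis, without error) of the 20 members whose standard error is not within 5% of the largest in either shRNA table, in shRNA-cFos E1, shRNA-cFos E0, shRNA-Ctrl E1 and shRNA-Ctrl E0, after scaling the separately normalized tables to each other. For 19 of the 20 genes the filled red circle (shRNA-cFos E1) lies below the filled blue square (shRNA-Ctrl E1), and for all 20 the open red circle (shRNA-cFos E0) lies above the open blue square (shRNA-Ctrl E0). The shares of all genes with these orders were not computed.

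By the authors' deposited values, 8 of 37 tested members were higher in cFos_OE than in EYFP_OE, against a background of 7.1% of 15827 tested genes (13% in either direction), and 0 were lower, against 5.86% (also 0 at an unadjusted p under 0.05, with 16 higher). The 37 log2 fold changes were all above 0 in the authors' deposited table, between 0.12 and 0.85 with a median of 0.35, beside -0.01 for all tested genes, of which 48.4% were above 0. The 8 that rose were Gbp3 (0.82 ± 0.19, DESeq2 adjusted p = 0.0003), Zbp1 (0.85 ± 0.20, 0.00034), Oasl2 (0.71 ± 0.20), Bst2 (0.68 ± 0.20), Irf7 (0.62 ± 0.20), Mx1 (0.55 ± 0.19), Parp14 (0.53 ± 0.19) and Ifitm3 (0.50 ± 0.17) in the authors' deposited table. None of the Ifit family passed here, with Ifit1 at 0.39 ± 0.20, Ifit3 at 0.36 ± 0.20 and Ifit2 at 0.14 ± 0.17 in the authors' deposited table (DESeq2 adjusted p = 0.25, 0.27 and 0.76, and 0 of 3 at an unadjusted p under 0.05). Stat2 (0.22 ± 0.11), Irf9 (0.26 ± 0.16), Isg15 (0.46 ± 0.20) and Eif2ak2 (0.35 ± 0.17) did not pass either in the authors' deposited table. Gbp2 (0.37 ± 0.16) and Igtp (0.38 ± 0.18) have a fold change and no p in the authors' deposited table, as DESeq2 gives where the count of a library lies far from the others, and were not tested. In place of 8, the count was 4 at an adjusted p under 0.01, 5 with a minimum of 1.5-fold and 0 with the Holm adjustment, computed from the authors' deposited table. Whether these changes differ from the E1 responses was not tested, since the contrasts are not of the same kind.

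The deposited standard errors of the members exceeded those of genes of like mean count most with shRNA-Ctrl. The pull toward 0 also limits these errors, whose largest values were 0.26 with shRNA-cFos, 0.29 with shRNA-Ctrl and 0.20 with overexpression. A ratio near 1 therefore does not show that the spread between mice was like that of other genes. Each member's standard error was set against the median of the 200 genes closest in mean count in the same table, and this ratio had a median of 1.16 with shRNA-cFos, 1.66 with shRNA-Ctrl and 1.09 with overexpression, computed from the authors' deposited tables. It reached 3.15 for Ifit3 with shRNA-Ctrl and was 0.95 for Cmpk2 there, computed from the authors' deposited tables. A standard error within 5% of the largest in the table was found for 12, 17 and 18 tested members with shRNA-cFos, shRNA-Ctrl and overexpression, as computed from the authors' deposited tables. Annotated coding genes overlap Stat2, Ifi27, Rtp4, Eif2ak2 and Ifit1, so their counts are uncertain where reads could be split. Standard errors near the largest, among them those of Ifit1, Isg15 and Usp18 with shRNA-Ctrl, belong to fold changes pulled strongly toward 0. Under the prior assumed here, a still stronger pull makes the deposited standard error smaller again. A smaller standard error therefore does not show a weaker pull.

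**Figure D4:**
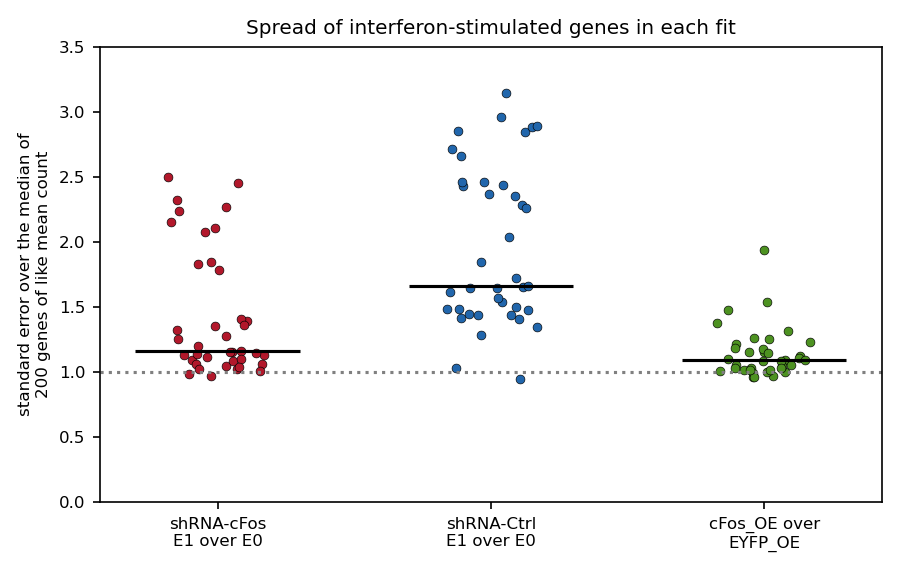
Standard error of each member's log2 fold change, divided by the median standard error of the 200 genes closest in mean count in the same table (vertical axis; the dotted line marks 1, black bars the medians of 1.16, 1.66 and 1.09), in the 3 deposited comparisons. The shRNA-Ctrl comparison holds the highest values, up to 3.15.

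Genes around the pathway were read from lists of interferon biology that share no gene with the members. Of 58 further interferon-induced genes, 25 of 54 tested fell with shRNA-cFos and 31 of 56 rose with shRNA-Ctrl in the authors' deposited tables, with medians of -0.53 and 0.64. Of all tested genes, 11.7% fell with shRNA-cFos and 16.8% rose with shRNA-Ctrl. The opposite directions had 0 calls in both tables (0 of 54 and 0 of 56 at an unadjusted p under 0.05 by DESeq2), against 16.3% and 16.2% of all tested genes. Trim30a, a tripartite motif gene, had -1.05 ± 0.17 with shRNA-cFos and 0.91 ± 0.27 with shRNA-Ctrl, and Herc6, the main ligase for Isg15 in mouse, had -0.71 ± 0.16 with shRNA-cFos and 1.22 ± 0.21 with shRNA-Ctrl, in the authors' deposited tables. With overexpression 12 of 54 of these genes rose, against 7.1% of all tested genes. They were led by Tor3a (1.29 ± 0.13) and Nlrc5, an activator of MHC class I genes (1.17 ± 0.20), in the authors' deposited table.

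The ligands themselves were scarcely detected. Ifnb1 had a mean normalized count of 0.569 in the shRNA-cFos table, 0.440 in the shRNA-Ctrl table and 0 in the overexpression table, and Ifng had 0.821, 0.609 and 0.303, as deposited by the authors, so neither was tested. The type I receptor genes Ifnar1 and Ifnar2 had -0.25 ± 0.09 and -0.23 ± 0.14 with shRNA-cFos and -0.09 ± 0.08 and 0.04 ± 0.11 with shRNA-Ctrl in the authors' deposited tables, and of these 4 values that of Ifnar1 with shRNA-cFos passed. Ifngr2, a subunit of the interferon gamma receptor, had -0.13 ± 0.09 with shRNA-cFos, where it did not pass, and fell with shRNA-Ctrl (-0.53 ± 0.07) in the authors' deposited tables. Of 10 tested ligand, receptor and JAK-STAT genes, 3 fell with shRNA-cFos, 2 rose and 1 fell with shRNA-Ctrl, and 3 rose with overexpression in the authors' deposited tables. With shRNA-Ctrl these shares are near those of all tested genes, 16.8% higher and 16.2% lower, while 11.7% of all tested genes were lower with shRNA-cFos and 7.1% higher with overexpression. The 3 with overexpression were Jak1 (0.59 ± 0.07), Stat3 (0.40 ± 0.10) and Tyk2 (0.34 ± 0.10) in the authors' deposited table.

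Of 18 genes of the sensing pathway upstream of interferon, 8 fell with shRNA-cFos, 7 rose with shRNA-Ctrl and 3 rose with overexpression in the authors' deposited tables. The shares of all tested genes were 11.7%, 16.8% and 7.1%. Irf8, a factor of microglia and other myeloid cells, had -0.87 ± 0.18 with shRNA-cFos, 0.63 ± 0.18 with shRNA-Ctrl and 0.63 ± 0.16 with overexpression in the authors' deposited tables. Of 13 negative regulators, 3 fell and 1 rose with shRNA-cFos, 8 rose and 1 fell with shRNA-Ctrl, and 2 rose with overexpression in the authors' deposited tables. The shares of all tested genes were 11.7% and 16.3%, 16.8% and 16.2%, and 7.1% in the same order. Socs1, which inhibits JAK kinases, had -0.50 ± 0.25 with shRNA-cFos, where it did not pass, and 0.62 ± 0.25 with shRNA-Ctrl in the authors' deposited tables.

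Marker lists of microglia, reactive astrocytes, monocytes and neutrophils, and T and NK lymphocytes had medians on the members' side of 0 in each comparison. Monocyte and neutrophil markers had medians of -0.39 with shRNA-cFos, 0.50 with shRNA-Ctrl and 0.31 with overexpression in the authors' deposited tables. T and NK lymphocyte markers had -0.24, 0.45 and 0.30 in the same order, over the tested genes counted below. Of all tested genes, 11.7% fell and 16.3% rose with shRNA-cFos, and 16.8% rose and 16.2% fell with shRNA-Ctrl. With overexpression, 7.1% rose and 5.86% fell. Of 14 microglial markers, 9 fell and 1 rose with shRNA-cFos, 11 rose with shRNA-Ctrl and 9 rose with overexpression in the authors' deposited tables, with medians of -0.45, 0.35 and 0.49. Of 12 reactive astrocyte markers, 8 fell with shRNA-cFos, 6 rose with shRNA-Ctrl and 10 rose with overexpression in the authors' deposited tables, with medians of -0.55, 0.53 and 0.77. Of 10 dentate granule neuron markers, 6 rose with shRNA-cFos, while 7 fell and 1 rose with shRNA-Ctrl and 6 fell with overexpression in the authors' deposited tables. Of 10 endothelial markers, 1 fell and 1 rose with shRNA-cFos, near the shares of all tested genes. With shRNA-Ctrl 4 rose and with overexpression 4 fell in the authors' deposited tables. The tables were normalized separately, with E0 levels apart by a median log2 ratio of -0.43 between the shRNA tables, so sums are not compared across them. The mean normalized counts of the microglial markers summed to 11344, 15725 and 12468 in the shRNA-cFos, shRNA-Ctrl and overexpression tables by the authors as deposited, and those of the granule neuron markers to 14868, 25249 and 21160. Of the 12 T and NK lymphocyte markers, 0 of 3 tested passed with shRNA-cFos (0 at an unadjusted p under 0.05 by DESeq2), 3 of 10 rose with shRNA-Ctrl (Cd3g, Cd8a and Gzmb), and 1 of 8, the pan-leukocyte gene Ptprc, rose with overexpression (0.78 ± 0.18) in the authors' deposited tables. The sums of mean normalized counts were 290 for 12 T and NK markers and 12.4 for 5 B cell markers in the authors' deposited shRNA-cFos table. They were 308 and 13.3 in that of shRNA-Ctrl. Ptprc alone held 164 of the 290 and 180 of the 308. Monocyte and neutrophil markers summed to 1521, 1585 and 1481 in the authors' deposited tables in the same order as above, with Elane at 0 in each. Most of each sum was Lyz2, at 1329, 1353 and 1311. Of these markers, 1 of 5 tested, Lyz2, fell with shRNA-cFos, 3 of 8 rose with shRNA-Ctrl and 2 of 7 rose with overexpression. The part of these cell types in the members' changes was not tested.

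**Figure D5:**
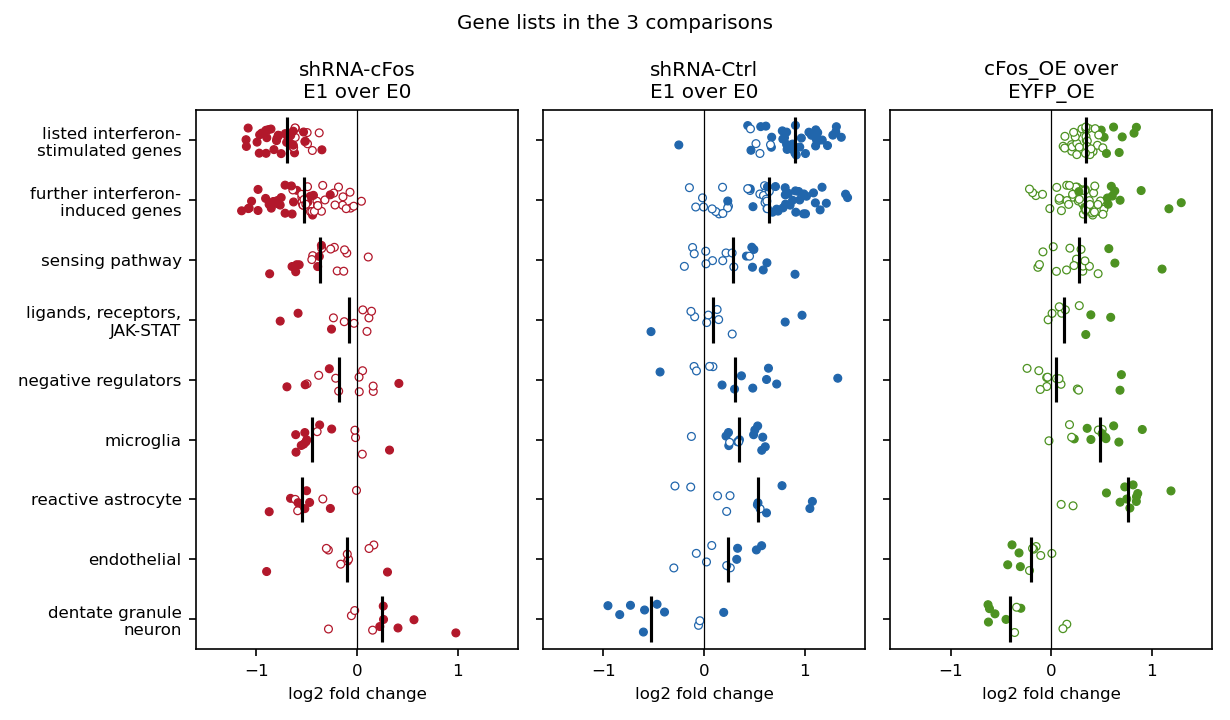
Log2 fold changes of all tested genes of 9 lists (rows; points jittered, filled for an adjusted p under 0.05, black bars for the medians) in the 3 deposited comparisons (panels). Both lists of interferon-induced genes have medians below 0 with shRNA-cFos (-0.70 and -0.53) and above 0 with shRNA-Ctrl (0.90 and 0.64). The medians of microglial and reactive astrocyte markers lie on the same side and that of granule neuron markers on the other side, while single markers depart from this.

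Members with and without ISRE letters in the promoter window are described side by side. All 39 members lay below 0 with shRNA-cFos and 38 of 39 above 0 with shRNA-Ctrl. The medians of both groups therefore had to share a sign, which says nothing about the letters. The 15 with the letters had median log2 fold changes of -0.66 with shRNA-cFos and 0.97 with shRNA-Ctrl, and the 14 without had -0.71 with shRNA-cFos and 0.74 with shRNA-Ctrl, computed from the authors' deposited tables and given without a test. The group without the letters includes Cmpk2, which fell with shRNA-Ctrl, and the 10 members with no promoter in the table are in neither group. Across the 39 members, the response with shRNA-cFos tended to be lower where that with shRNA-Ctrl was higher (Spearman's rho -0.36, across genes of the same libraries, which are not independent replicates), computed from the authors' deposited tables. The same measure over all 14386 genes was 0.18, from the authors' deposited tables.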

How the data were processed

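RNA-seq libraries were grouped by title, and the labels' protocols state a library per mouse; nothing marks shared cultures or batches. Per the submitters' processing notes, TopHat2, DESeq2 and build mm9 were used, with no versions; counting, annotation and strand setting are stated in none of the sources used here. Per the file headers, each deposited table gives a mean normalized count (a signal scaled by size factors), a log2 fold change with its standard error (log2), a Wald score, a p-value and an adjusted p-value. The deposited score equals fold change over standard error on every row, with a gap of at most 3.67e-07. The adjusted p-value of the authors covers genes with a mean normalized count of at least 12.2 (shRNA-cFos), 5.40 (shRNA-Ctrl) and 3.64 (overexpression). The tables hold 0 columns of values per library, so precision is that of the authors' standard errors. The p-values rest on the spread between the 3 mice a group as DESeq2 models it, which is not a direct measure of that spread. Of the gene names in the overexpression comparison, 27 had turned into dates and were left out.

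The result of 1 pathway gene is not reported here. Members and lists were chosen with earlier results of these data known. All 39 members are accounted for, with Fos and pathway genes by a written rule; other list genes and members singled out for a value were chosen after their values were seen. Calls use an adjusted p under 0.05. Differences of responses used a 2-sided normal p with Benjamini-Hochberg adjustment over 14386 genes (Python 3.11.15, SciPy 1.17.1, pandas 2.3.3). The code was checked on simulated differences with normal noise of the deposited standard errors. That check holds no pull toward 0, no error in the standard errors and no dependence between genes, so it does not test the normal approximation itself. The prior behind the shrunken log2 values by the authors was removed by assuming that the largest standard error equals 0.5 of its standard deviation (0.53, 0.59 and 0.41 in the same order of tables). The removal always takes the solution with the weaker pull. It is uncertain where the standard error is within 5% of the largest, and it removes too little wherever the true pull was the stronger one. Levels across tables used genes with a mean count of at least 50. Promoters are from RefSeq, GRCm38.p6, and serve for letters only, since the files use mm9.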

Additional observations from a re-analysis of the deposited data

Results flagged for a closer look

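The E1 response of 38 of the 39 genes differed between the hairpins at a Benjamini-Hochberg adjusted p under 0.05 on the DESeq2 errors, each with a lower response with shRNA-cFos than with shRNA-Ctrl, as log2 differences (shRNA-cFos minus shRNA-Ctrl) computed from the authors' deposited tables. No cause was tested, and leaving out single mice was not possible.

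Among transcription factors the differences were, from the lowest up, Irf7 (-1.70), Irf9 (-1.66), Irf1 (-1.26) and Stat2 (-1.0). The Ifit family held Ifit1 (-2.26), Ifit3 (-2.25) and Ifit2 (-1.37). Genes of ISG15 conjugation were Usp18 (-2.03), Isg15 (-1.97) and Trim25 (-1.31), and nucleic acid sensors were Eif2ak2 (-1.88), Ifih1 (-1.82), Dhx58 (-1.81), Zbp1 (-1.56) and Ddx58 (-1.46). Effectors at membranes and on the viral life cycle were Bst2 (-2.26), Rtp4 (-2.25), Oasl2 (-2.01), Mx2 (-1.75), Rsad2 (-1.61), Mx1 (-1.52), Ifitm3 (-1.28) and Samd9l (-1.23). The ADP-ribosylation genes were Parp9 (-1.80), Parp14 (-1.51) and Dtx3l (-1.30). The interferon-inducible GTPases were Gbp7 (-1.74), Igtp (-1.63), Irgm1 (-1.52), Gbp3 (-1.41), Gbp2 (-1.27) and Iigp1 (-1.17), and of these the difference of Iigp1 passed although it passed in neither arm alone. The remaining members were Xaf1 (-2.17), Ifi44 (-2.0), Lgals3bp (-1.75), Ifi35 (-1.48), Sp100 (-1.27) and Ifi27 (-0.78).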

How the results depend on the processing

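No paired analysis was possible because the deposited tables hold comparisons and no value per library; leaving out each replicate was not run for the same reason. Counts below are of the 39 members, computed from the authors' deposited tables. With the Holm adjustment, 10 members were lower with shRNA-cFos (31 as reported), 5 higher and 0 lower with shRNA-Ctrl (34 and 1), 0 higher with overexpression (8) and 22 lower in response (38); by construction it passes fewer genes than Benjamini-Hochberg. At an adjusted p under 0.01, 0 were lower with shRNA-Ctrl and 4 higher with overexpression. With a minimum of 1.5-fold, 0 were lower with shRNA-Ctrl and 5 higher with overexpression. The other counts stayed within 1.5 times of those reported, under these settings and with the prior removed, without a filter on low mean counts, and centred on the median gene. No member's fold change changed sign under the last 3 settings. Removing the prior leaves the Wald score, and so each call within a table, as it was. It moved the members' median log2 fold change to -1.01 with shRNA-cFos, 1.30 with shRNA-Ctrl, 0.54 with overexpression and -2.28 for the difference. These medians are uncertain, since the removal is uncertain where a standard error is within 5% of the largest and may remove too little for other members. That held for 12 tested members with shRNA-cFos, 17 with shRNA-Ctrl and 18 with overexpression. Centring shifted the tables by at most 0.01 on the log2 scale. Depth per library is unknown, and 3 mice a group limit what the wide errors can show.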
